A study of Homo sapiens with 6 samples.

Results

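Interferon-stimulated genes, the transcripts that cells make in response to interferons, were examined in MDAMB468, a cell line from a human breast cancer without hormone receptors or HER2 amplification (triple negative, TNBC). Members were the rows whose Ensembl identifier maps to one of 49 listed symbols, which name 48 genes because DDX58 is the older name of RIGI. Of these, 38 were among the 10487 genes of the deposited table. The other 10 genes, DHX58, EPSTI1, HERC6, IFI44, IFI44L, IRF9, OAS2, SAMD9L, TRIM22 and XAF1, were not in it, and their levels were not analysed here. The table holds genes with an average above 5 CPM (reads of a gene scaled by the size of its library) in at least 1 group, and 5 members (RIGI, RSAD2, CMPK2, IFI27 and IFITM1) passed that limit through control replicate 2 alone. These 5 had to be high in that library to be measured, so counts are also given for the other 33.

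Bulk RNA was sequenced from the 3' end of transcripts (QuantSeq) in 3 control libraries, whose genotype the labels give as WT, and 3 libraries of the genotype IGFBP2 overexpression. Neither group received a treatment, and the labels call the libraries biological replicates without saying which cultures or days they share. The IGFBP2 overexpression cells were made with lentivirus that carried a Cas9 that cannot cut, joined to activator domains (VHP), and with a guide RNA to IGFBP2, under blasticidin selection and cell sorting. They are a sorted population rather than a clone, and whether the control cells carried the activator was not stated, so that effects of IGFBP2 and of the engineering cannot be told apart. IGFBP2, which encodes an insulin-like growth factor binding protein, was at 93.5, 87.3 and 136 CPM in the controls, in the order of their replicate numbers, and at 566, 1176 and 498 CPM in the IGFBP2 overexpression libraries, and the same order is kept throughout. Reads on the listed genes ranged from 2497353 to 4579587 per library, and control replicate 2, with 3530444, was neither the deepest nor the shallowest. All 13 breast epithelial and basal-like markers searched were in the table, together with 1 of 6 fibroblast markers (COL1A1) and 0 of 8 immune and 0 of 3 endothelial markers. Of ESR1, PGR and ERBB2 only ERBB2 (HER2) was in the table, at 15.8 to 37.0 CPM.

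Type I and type III interferons bind separate receptors that act through JAK family kinases, and the kinases activate STAT proteins. A complex that holds STAT2 and IRF9 binds the interferon-stimulated response element, while the main output of type II interferon acts through the gamma-activated site. The induced proteins sense viral RNA, block its translation, degrade it or tag proteins with ISG15, and epithelial and tumour cells can keep a low level of them without infection.

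The promoters of the members were searched for these elements. RefSeq promoters (GRCh38.p14, 250 bases before to 50 after the start of a gene) were found for 33 of the 38 members, all but IRF7, USP18, IFITM2, IFIT2 and OASL. The response element core, GAAANNGAAA on either strand, was in 21 of the 33 (63.6%), against 3.65% of 27305 RefSeq promoters and 2.67% of those of genes in the table. The gamma-activated site core, TTCNNNGAA on either strand, was in 9 of the 33 (27.3%), against 7.88% of all promoters, and 6 members held both. The cores are not particular to the members. Among 33 promoters of further interferon-stimulated genes that are not members, 15 (45.5%) held the response element core and 4 (12.1%) the gamma-activated core. A match describes letters and not binding. The windows below are mostly of members with large differences between control libraries, led by IFI6, which differed most. They also include ISG20, which was the exception, and IRF1, which held only the gamma-activated core. Members with the response element core and small differences, such as EIF2AK2 and LGALS3BP, are not printed. Each window is written 5' to 3' on the strand of its gene. The core nearest the start of the gene is in capitals, and for IFIT3, IFIT1 and HERC5 that core reads on the opposite strand. The promoters of IFI6, IFI27, IFIT3, IFIT1, ISG15 and HERC5 held further response element cores. In the windows of IFI6, IFI27, IFIT1 and ISG15 such a further core stands in lower case.
IFI6: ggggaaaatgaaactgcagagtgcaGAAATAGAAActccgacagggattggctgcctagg
IFI27: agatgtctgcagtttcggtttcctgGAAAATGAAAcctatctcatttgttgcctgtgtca
IFIT3: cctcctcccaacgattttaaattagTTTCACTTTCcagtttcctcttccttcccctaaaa
IFIT1: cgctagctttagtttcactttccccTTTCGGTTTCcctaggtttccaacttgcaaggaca
MX1: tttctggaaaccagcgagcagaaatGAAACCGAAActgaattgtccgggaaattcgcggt
ISG15: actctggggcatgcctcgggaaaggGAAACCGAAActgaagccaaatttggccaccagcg
HERC5: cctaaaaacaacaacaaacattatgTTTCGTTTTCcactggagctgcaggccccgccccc
ISG20: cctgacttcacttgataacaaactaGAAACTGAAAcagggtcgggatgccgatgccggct
IRF1: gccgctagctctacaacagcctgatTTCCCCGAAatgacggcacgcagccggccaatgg
These windows lie at chr1:27672251-27672310 (- strand) for IFI6, chr14:94110616-94110675 (+ strand) for IFI27, chr10:89327850-89327909 (+ strand) for IFIT3 and chr10:89392495-89392554 (+ strand) for IFIT1. They lie at chr21:41420544-41420603 (+ strand) for MX1, chr1:1013365-1013424 (+ strand) for ISG15, chr4:88457020-88457079 (+ strand) for HERC5, chr15:88638922-88638981 (+ strand) for ISG20 and chr5:132490864-132490922 (- strand) for IRF1. The core in capitals started 93 bases before the start of the gene in IFI6, 95 in IFI27, 122 in IFIT3, 103 in IFIT1, 107 in ISG15, 74 in HERC5, 69 in ISG20 and 124 in IRF1, and 11 bases after it in MX1. In IFI27 the response element overlaps a gamma-activated core.

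The 3 control libraries differed widely in these genes. Control replicate 2 was the highest control library for 36 of the 38 members, against 35.6% of all genes, and the exceptions were ISG20 and IRF1. Of the 33 members that did not need it to be listed, it was the highest control for 31. It was the highest of all 6 libraries for 34 members, against 20.7% of all genes, and for 29 of the 33 members that did not need it to be listed. It exceeded the mean CPM of control replicates 1 and 3 by over 2-fold for 29 members, against 3.64% of all genes, and for 24 of the 33. Summed over the 38 members, the controls held 1354, 4294 and 1902 CPM and the IGFBP2 overexpression libraries 1765, 1759 and 2377 CPM. IFITM3 supplied the largest share of every one of these sums. In bulk RNA, fewer cells with these transcripts and less RNA per cell cannot be told apart.

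**Figure D1:**
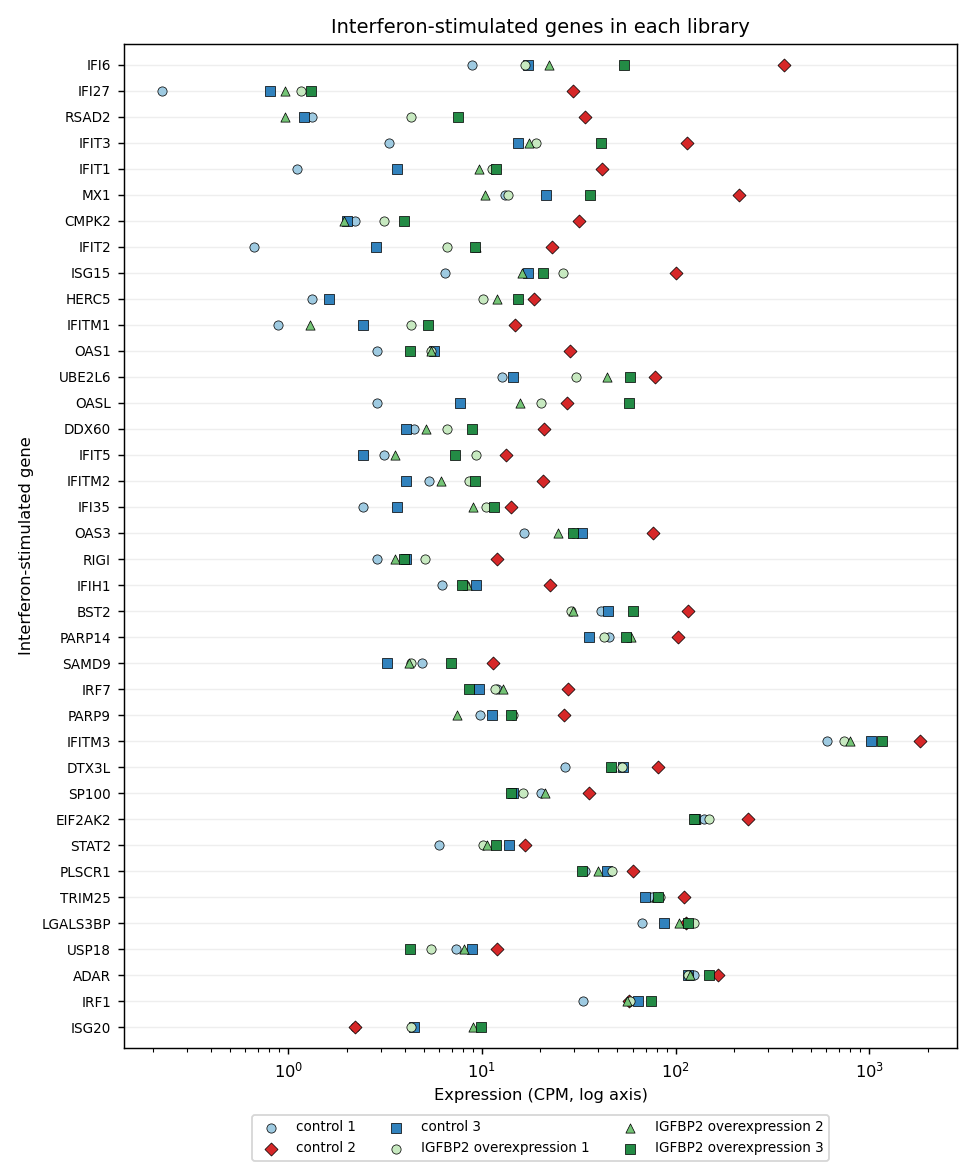
Expression of the 38 interferon-stimulated genes in each library, in CPM on a log axis, with one point per library and genes ordered by the difference of control replicate 2 from the other controls. Control replicate 2 (red diamonds) lies to the right of the other 5 libraries for 34 genes, and IFI6 spans 8.88 to 364 CPM among the controls.

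The largest ratios of control replicate 2 to the other controls were those of IFI27 and IFI6, which encode small membrane proteins. IFI6, a mitochondrial protein that restrains apoptosis, was at 8.88, 364 and 17.4 CPM in the controls and at 16.8, 22.3 and 53.9 CPM in the IGFBP2 overexpression libraries. The ratio of control replicate 2 to the other 2 controls together was 30.6 (exact 95% counting interval 24.5 to 38.6). All 3 IGFBP2 overexpression libraries fell between control replicates 1 and 2. IFI27, a relative of IFI6, rested on 1, 106 and 2 reads in the controls (0.222, 29.5 and 0.809 CPM), a ratio of 68.6 with a counting interval of 22.8 to 338, and on 3, 3 and 4 reads in the IGFBP2 overexpression libraries. It was therefore near the lower limit of counting in every library except control replicate 2. Counting intervals here cover counting error only and leave out the spread between replicates. They take each read as an independent molecule, which need not hold for amplified reads.

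The IFITM proteins, which block the entry of enveloped viruses, and BST2, which tethers budding virus, gave ratios of control replicate 2 to the other 2 controls between 2.42 (IFITM3) and 10.3 (IFITM1). IFITM3 was the most abundant member, at 605, 1819 and 1022 CPM in the controls and 745, 797 and 1164 CPM in the IGFBP2 overexpression libraries. IFITM1 was at 0.888, 14.7 and 2.43 CPM and IFITM2 at 5.33, 20.6 and 4.04 CPM in the controls, and both were below 10 CPM in every IGFBP2 overexpression library. IFITM1, IFITM2 and IFITM3 are neighbours of related sequence on chromosome 11, so the division of reads between them may be uncertain, which was not tested. BST2 was at 41.1, 115 and 44.9 CPM in the controls and at 28.8, 29.7 and 60.1 CPM in the IGFBP2 overexpression libraries. Control replicate 2 was thus the highest library for each of these 4 genes, and IGFBP2 overexpression replicate 3 the next highest. LGALS3BP, a secreted glycoprotein, was at 66.8, 114 and 86.9 CPM in the controls and between 104 and 125 CPM in the IGFBP2 overexpression libraries.

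The 4 IFIT genes, whose products bind viral RNA and hold back its translation, lie side by side on chromosome 10 in the order IFIT2, IFIT3, IFIT1 and IFIT5, and they shared a pattern. IFIT1 was at 1.11, 41.7 and 3.64 CPM in the controls and at 11.3, 9.68 and 11.8 CPM in the IGFBP2 overexpression libraries. IFIT2 was at 0.666, 23.1 and 2.83 CPM in the controls and at 6.63, 9.36 and 9.20 CPM in the IGFBP2 overexpression libraries. IFIT3 was at 3.33, 115 and 15.4 CPM in the controls and at 19.1, 17.4 and 41.1 CPM in the IGFBP2 overexpression libraries. For each of these genes the IGFBP2 overexpression libraries sat above control replicates 1 and 3 and below control replicate 2. IFIT5 had the same order, with 3.11, 13.4 and 2.43 CPM in the controls and 9.36, 3.55 and 7.23 CPM in the IGFBP2 overexpression libraries. Summed over the 4 genes, the controls gave 8.21, 193 and 24.3 CPM.

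ISG15 is a ubiquitin-like protein, UBE2L6 and HERC5 attach it to other proteins, and USP18 removes it and restrains the type I receptor. ISG15 was at 6.44, 100.1 and 17.4 CPM in the controls and at 26.1, 16.1 and 20.7 CPM in the IGFBP2 overexpression libraries. HERC5 was at 1.33, 18.6 and 1.62 CPM in the controls and at 10.1, 11.9 and 15.4 CPM in the IGFBP2 overexpression libraries. UBE2L6 was at 12.7, 78.7 and 14.6 CPM in the controls and at 30.8, 44.2 and 58.5 CPM in the IGFBP2 overexpression libraries. In HERC5 and UBE2L6 control replicates 1 and 3 lay close together, apart from the other 4 libraries. USP18 differed less, at 7.33, 12.0 and 8.90 CPM in the controls and 5.46, 8.07 and 4.27 CPM in the IGFBP2 overexpression libraries.

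Among the classic antiviral effectors, MX1, a GTPase that traps viral nucleoproteins, was at 13.1, 213 and 21.4 CPM in the controls and at 13.6, 10.3 and 36.1 CPM in the IGFBP2 overexpression libraries. RSAD2 (viperin), which makes a chain-terminating nucleotide, was at 1.33, 34.2 and 1.21 CPM in the controls and at 4.29, 0.968 and 7.56 CPM in the IGFBP2 overexpression libraries. CMPK2, a mitochondrial nucleotide kinase, was at 2.22, 31.7 and 2.02 CPM in the controls and at 3.12, 1.94 and 3.94 CPM in the IGFBP2 overexpression libraries. In all 3 genes control replicate 2 stood alone and IGFBP2 overexpression replicate 3 was the highest of its group. The ratio of control replicate 2 to the other controls was smaller for the helicase DDX60 (4.85), for SAMD9 (2.65) and for the membrane scramblase PLSCR1 (1.60). RSAD2 and CMPK2 overlap on opposite strands of chromosome 2, as do PARP9 and DTX3L on chromosome 3, and the strand setting of the counting is not given in the sources used here.

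OAS1 and OAS3 make the messenger that activates RNase L, while EIF2AK2, ADAR and ISG20 sense, edit and degrade RNA. OAS1 was at 2.89, 28.4 and 5.66 CPM in the controls and between 4.27 and 5.46 CPM in the IGFBP2 overexpression libraries, and OAS3 at 16.4, 76.5 and 32.8 CPM in the controls and between 24.9 and 29.6 CPM in the IGFBP2 overexpression libraries. OASL, which lacks the synthetase activity, was at 2.89, 27.5 and 7.68 CPM in the controls and at 20.3, 15.8 and 57.5 CPM in the IGFBP2 overexpression libraries. Unlike OAS1 and OAS3, OASL was highest in IGFBP2 overexpression replicate 3. EIF2AK2 (PKR) was at 140, 237 and 125 CPM and ADAR at 125, 165 and 116 CPM in the controls. ISG20, an RNA exonuclease, was the single member for which control replicate 2 lay below the mean of the other controls, with 2.22, 2.23 and 4.45 CPM in the controls and 4.29, 9.04 and 9.85 CPM in the IGFBP2 overexpression libraries. Its ratio of control replicate 2 to the other controls was 0.739 (counting interval 0.283 to 1.74), although its promoter holds the response element printed above.

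The sensors and transcription factors gave smaller ratios between controls than IFI6, MX1 or the IFIT genes. The RNA sensors RIGI and IFIH1 (MDA5) were 3.63-fold (counting interval 2.14 to 6.31) and 3.08-fold (2.15 to 4.47) higher in control replicate 2 than in the other 2 controls together. The transcription factors IRF7, STAT2 and IRF1 gave ratios of 2.49 (1.83 to 3.39), 1.91 (1.31 to 2.77) and 1.30 (1.09 to 1.56). IRF1 was at 33.3, 57.6 and 63.9 CPM in the controls, with control replicate 3 the highest. Of the members that modify proteins or sit in nuclear bodies, PARP9, PARP14, DTX3L, SP100 and TRIM25 gave ratios between 1.495 (TRIM25) and 2.56 (PARP9).

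The spread was set against the remaining genes and against what counting alone gives. Over the members the median standard deviation (SD) of log2(CPM + 1) among the 3 controls was 1.00, against 0.27 for all genes, and 0.81 for the 33 members. The SD was above 1 for 19 of the 38 members, for 15 of the 33 and for 1.51% of all genes. Relative to the SD expected from counting whole reads, the median was 6.18-fold for members, 5.18-fold for the 33 and 2.02-fold for all genes. Among the IGFBP2 overexpression libraries the median SD of the members was 0.28, against 0.22 for all genes, and 1.58-fold the counting SD, against 1.51-fold. RSAD2 was the only member with an SD above 1 in that group. Without control replicate 2, control replicates 1 and 3 gave a median SD of 0.31 for the members and 0.22 for all genes.

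**Figure D2:**
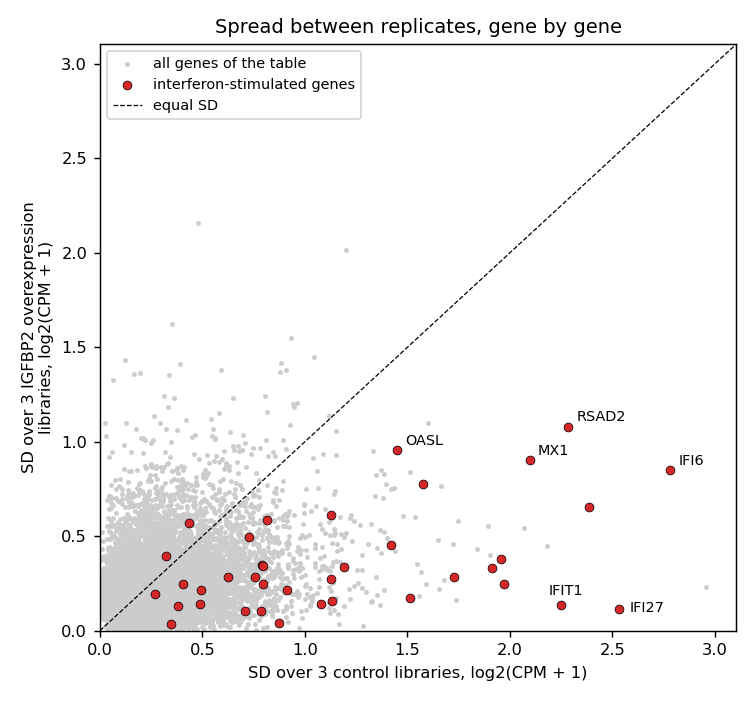
Each point is a gene, placed by its SD over the 3 control libraries (x axis) and over the 3 IGFBP2 overexpression libraries (y axis), both in log2(CPM + 1), with all 10487 genes in grey and the 38 interferon-stimulated genes in red. The median SD of the red points is 1.00 on the x axis and 0.28 on the y axis.

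Each library was then compared with the mean of the other 2 of its group. The median difference over the members was 1.61 on the log2(CPM + 1) scale for control replicate 2, against 0.02 over all genes, and 1.41 over the 33 members. It was -1.14 for control replicate 1 and -0.62 for control replicate 3, each of which was set against a mean that includes replicate 2. Control replicates 1 and 3 also differed from each other, with replicate 3 above replicate 1 for 26 of the 38 members, against 51.2% of all genes. In the IGFBP2 overexpression group the medians were 0.02, -0.23 and 0.24 for replicates 1, 2 and 3. IGFBP2 overexpression replicate 3 was the highest of its group for 21 members, against 35.9% of all genes, and replicate 2 was the lowest for 20, against 32.3% of all genes.

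**Figure D3:**
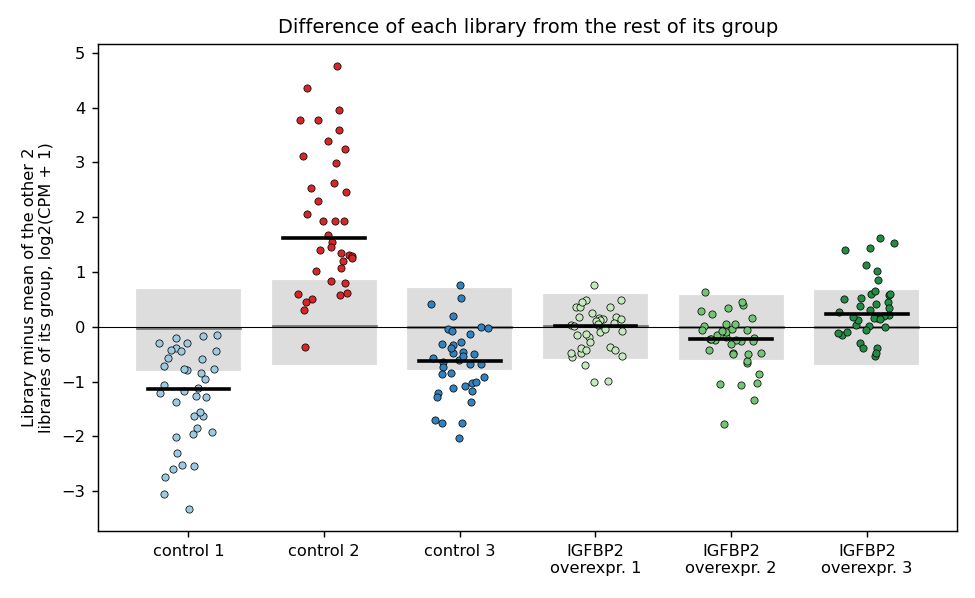
Difference of each library from the mean of the other 2 libraries of its group, in log2(CPM + 1), for the 38 members (points, with the median as a black line) and for all genes (grey box from the 5th to the 95th percentile, with the median as a grey line). The members' median is 1.61 in control replicate 2 and lies between -0.23 and 0.24 in the IGFBP2 overexpression libraries.

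Of all 10487 genes ordered by how far control replicate 2 exceeded the other controls, members held ranks 2 to 11, and 13 of the highest 20, 18 of the highest 50 and 20 of the highest 100 were members. Of the 33 members that did not need that library to be listed, 9 were in the highest 20, 14 in the highest 50 and 15 in the highest 100. Rank 1 was GDF15, a stress-induced cytokine and no member, at 5.77, 117 and 1.21 CPM in the controls and between 33.8 and 46.8 CPM in the IGFBP2 overexpression libraries. Members with more than 1 response element core in the promoter had a median difference of 2.63 (n = 13). The median was 1.68 for the 21 members with any core and 1.40 for the 12 without one, a group in which RSAD2 (3.95) and CMPK2 (3.39) had large differences. Without the 5 members listed only through control replicate 2, the medians were 2.06 with more than 1 core (n = 11), 1.45 with any core (n = 19) and 1.01 without one (n = 9), and the ranges of members with and without a core overlapped in the whole set.

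The rest of the pathway was read from lists of its parts. Of 15 interferon genes searched, only IFNL1, a type III interferon, was in the table, at 0.666, 13.1 and 2.02 CPM in the controls and at 6.24, 7.75 and 9.20 CPM in the IGFBP2 overexpression libraries. These values rest on 3, 47 and 5 reads in the controls and on 16, 24 and 28 reads in the IGFBP2 overexpression libraries. IFNL1 ranked 15 among all genes by the difference of control replicate 2 from the other controls, and it had the same order of libraries as the IFIT genes, with control replicate 2 highest and control replicates 1 and 3 lowest.

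Receptors and their kinases varied less. For the 5 receptor genes in the table, of 6 searched, the median difference of control replicate 2 was 0.22, and IFNGR2, a subunit of the type II receptor, had the widest control range, at 29.3, 47.8 and 28.7 CPM. Of the receptor kinases, JAK2 was at 8.66, 17.8 and 10.1 CPM and JAK1 at 56.4, 74.5 and 57.4 CPM in the controls, with control replicate 2 the highest for both. For the kinase TYK2, at 165, 170 and 204 CPM, control replicate 3 was the highest.

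The median difference of control replicate 2 was -0.03 for 11 of 12 negative regulators in the table, of which SOCS3, a feedback inhibitor of JAK kinases, had the widest control range at 10.9, 18.4 and 5.66 CPM. It was -0.09 for 11 of 15 sensing adaptors and kinases. For 47 of 72 further interferon-stimulated genes in the table it was 0.31, and 28 of them were highest of the controls in replicate 2. The widest control ranges on this last list were those of TNFSF10 (TRAIL), at 0.444, 22.8 and 14.6 CPM, the chemokine gene CCL5, at 3.33, 23.4 and 10.9 CPM, and SHFL, an inhibitor of ribosomal frameshifting, at 21.1, 78.2 and 34.0 CPM. TNFSF10 and CCL5 were thus also higher in control replicate 3 than in replicate 1.

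**Figure D4:**
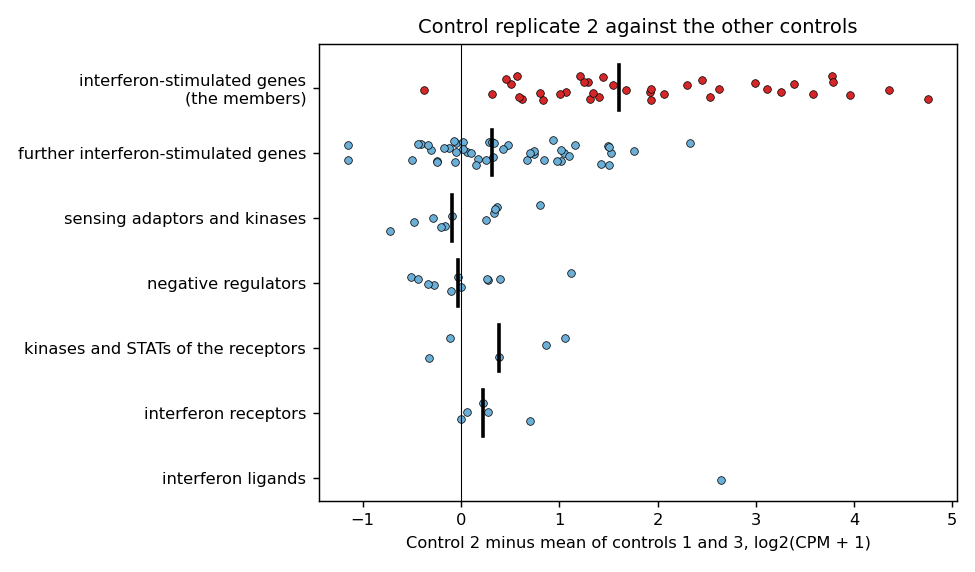
Difference of control replicate 2 from the mean of control replicates 1 and 3, in log2(CPM + 1), for each gene in the table (points) of 6 pathway lists and for the 38 members, with the median of each list as a black line. The members' median is 1.61, that of the further interferon-stimulated genes 0.31, and the single interferon gene in the table, IFNL1, lies at 2.65.

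Between the groups, no member passed the test. With limma on the log2(CPM + 1) values of all 10487 genes and Benjamini-Hochberg adjustment, 0 of the 38 members passed an adjusted p-value of 0.05, against 0.629% of all genes, and 2 had an unadjusted p-value under 0.05, against 13.0% of all genes. With limma voom on the recovered reads 0 members passed, against 141 of all 10487 genes, and 3 members had an unadjusted p-value under 0.05. The median log2 fold change, IGFBP2 overexpression minus control, was -0.15 over the 38 members and -0.09 over the 33, and 12 of the 38 had a positive and 26 a negative value. In 0 of 38 members were all IGFBP2 overexpression libraries above all controls, against 9.43% of all genes, and in 0 were all below, against 8.61%.

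The largest positive values were those of OASL, HERC5, ISG20, IFI35 and IFIT2. OASL had a mean of 12.7 ± 13.1 CPM in control and 31.2 ± 22.9 CPM in IGFBP2 overexpression cells (SD, n = 3 per group). Its log2 fold change was 1.48 (standard error 0.69, limma adjusted p = 0.410). HERC5 had means of 7.20 ± 9.91 and 12.5 ± 2.70 CPM, and its log2 fold change was 1.44 (standard error 0.70, limma adjusted p = 0.426). ISG20 had means of 2.96 ± 1.28 and 7.73 ± 3.01 CPM and its log2 fold change was 1.12 (standard error 0.32, limma adjusted p = 0.203), the lowest adjusted p of any member. With a control mean below 5 CPM, ISG20 was in the table only through the IGFBP2 overexpression group. A positive fold change of this gene was therefore favoured by the limit itself. The SD of the controls was above their mean for OASL and HERC5 and below it for ISG20. IFI35, a regulator of inflammatory signalling at 2.44, 14.2 and 3.64 CPM in the controls and 10.5, 9.04 and 11.5 CPM in the IGFBP2 overexpression libraries, had a log2 fold change of 0.86 (standard error 0.47, limma adjusted p = 0.487). That of IFIT2 was 0.80 (standard error 0.79, limma adjusted p = 0.729).

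The largest negative values were those of MX1, IFI27, CMPK2, BST2 and USP18. MX1 had a mean of 82.3 ± 113 CPM in control and 20.04 ± 14.04 CPM in IGFBP2 overexpression cells (SD, n = 3 per group). Its log2 fold change was -1.15 (standard error 0.90, limma adjusted p = 0.646). The log2 fold change was -0.92 for IFI27 (standard error 0.99, limma adjusted p = 0.756) and -0.80 for CMPK2 (standard error 0.79, limma adjusted p = 0.727). For these 3 genes control replicate 2 alone set the control mean above that of IGFBP2 overexpression cells. BST2 had a log2 fold change of -0.67 (standard error 0.42, limma adjusted p = 0.556), and USP18 of -0.60 (standard error 0.26, limma adjusted p = 0.375). USP18 was, with ISG20, the other member with an unadjusted p-value under 0.05.

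The contrast turned on control replicate 2. That library was picked out because it was high in these same members. It lay above the mean of the other controls for 37 of the 38, so leaving it out had to raise their fold changes. The values without it describe this dependence and are no test of the members as a set. Without that library the median log2 fold change of the members was 0.36. A positive value was found for 35 of 38 and for 30 of the 33, against 49.5% of all genes. The 33 are not free of selection in this comparison. In control replicates 1 and 3, HERC5, IFI35, IFIT1, IFIT2, IFIT5, IFITM2, DDX60, ISG20, OAS1 and SAMD9 averaged below 5 CPM. These genes count among the 33 only through the IGFBP2 overexpression group, which favoured positive values in advance. An unadjusted p-value under 0.05 was found for 11 members, against 12.9% of all genes. At an adjusted p-value of 0.05, 2 members passed, both higher in IGFBP2 overexpression, against 0.524% of all genes called higher. They were HERC5, at a log2 fold change of 2.43 (standard error 0.23, limma adjusted p = 0.0100), and IFI35, with 1.501 (standard error 0.22, limma adjusted p = 0.0405). In control replicates 1 and 3 HERC5 rested on 6 and 4 reads and IFI35 on 11 and 9. Control replicate 2 was the highest control for both genes, so its removal by itself lowered the control mean and the control spread. Only the main limma fit was run without it. IFNL1 also passed, at a log2 fold change of 1.95 (limma adjusted p = 0.0442), against 1.06 (limma adjusted p = 0.536) with all libraries. For 13 members, the 4 IFIT genes, HERC5, IFI35, UBE2L6, OASL, IFITM2, LGALS3BP, IFI27, DDX60 and TRIM25, all 3 IGFBP2 overexpression libraries lay above control replicates 1 and 3, against 15.3% of all genes, and for 0 they lay below, against 14.3%. Among the 33 members the count above was 12. Leaving out the library that was the highest control for nearly all members favoured this count in advance. IFI27 rested on 3, 3 and 4 reads against 1 and 2. IFIT1 had a log2 fold change of 1.93 (limma adjusted p = 0.061) and UBE2L6 of 1.60 (limma adjusted p = 0.0696) without that library. Nothing in the labels sets control replicate 2 apart from the other controls. Over all genes, 4.92% differed by more than 1 on the log2 scale between it and the mean of the other controls, against 3.96% for control replicate 1 and 4.11% for control replicate 3, and the median difference of its 13 epithelial and basal-like markers was -0.30.

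**Figure D5:**
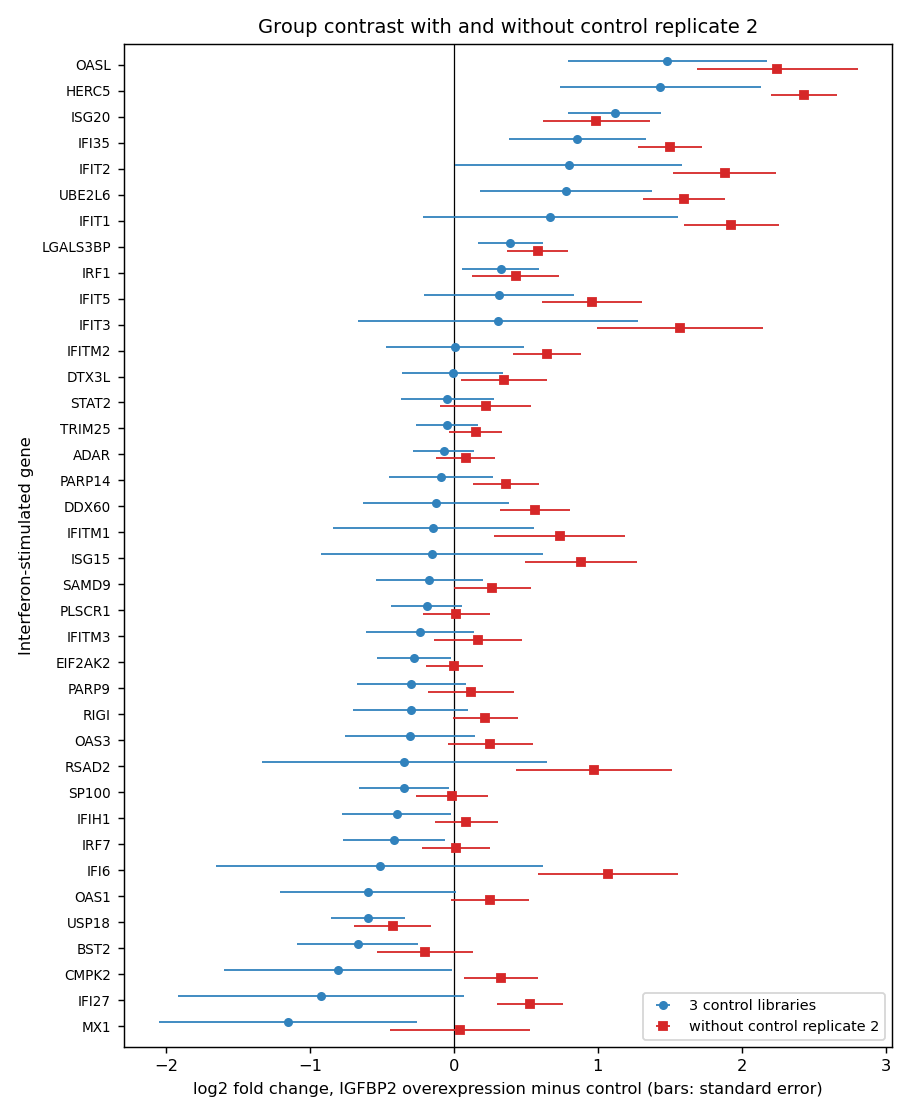
Log2 fold change of each of the 38 members, IGFBP2 overexpression minus control, from limma with all 3 controls (blue circles) and without control replicate 2 (red squares), with bars of 1 standard error. The median moves from -0.15 to 0.36, and 23 members change from a negative to a positive value, MX1, IFI27 and CMPK2 among them.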

How the data were processed

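Per the labels and the study's methods, the authors processed QuantSeq reads with bbduk (trimming), STAR (alignment to hg38), htseq-count (HTSeq 0.9.1 in the submitters' processing notes) and edgeR (normalization). The deposited values are log2(CPM + 1) of genes whose mean CPM exceeded 5 in 1 or both conditions. Input was 125 ng of total RNA in the methods and 100 ng in the labels. Values were whole multiples of a single step (100% within 0.001), so reads were recovered. Members and lists were chosen with earlier results of these data known. The main test was limma 3.58.1 (R 4.3.3) on the whole table, with a term for condition, no trend and Benjamini-Hochberg adjustment at 0.05, checked on simulated data. It measures only the spread between these libraries, which may be technical in part. Fold changes on the log2(CPM + 1) scale understate low genes. QuantSeq values are not scaled by length. Symbols and positions came from GENCODE 44, and 10462 of 10487 identifiers matched. Every member may be named, fold changes with errors are given for members called in any fit and for the 5 largest in each direction, and pathway genes are named by control range. IFIT1, UBE2L6, IFNL1 without control replicate 2, TYK2 and GDF15, were chosen after their values were seen. Alternatives covered scaling, pseudocount, a filter, the variance model, a replicate block and single libraries left out. The members that do not rest on control replicate 2 were counted apart after seeing the data. One pathway gene that falls under the naming rule is not reported here.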

Additional observations from a re-analysis of the deposited data

How the results depend on the processing

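Leaving out single libraries gave 0 to 2 called members, the 2 without control replicate 2, against 12 to 79 of all 10487 genes (70 without control replicate 2). It moved the members' median log2 fold change over -0.43 to 0.36, their median control SD over 0.31 to 1.24 and their median IGFBP2 overexpression SD over 0.18 to 0.26, the lowest without IGFBP2 overexpression replicate 3. The log2 fold change ranged over -0.046 to 1.88 for IFIT2, -1.92 to 0.044 for MX1, -1.79 to 0.53 for IFI27 and -1.39 to 0.33 for CMPK2. Signs changed without control replicate 1 for IFIT2 and without control replicate 2 for the other 3. Under other scalings, pseudocounts of 0.1 and 5, a limit of 10 CPM (which left 29 members), a trend, limma voom and sample quality weights, 0 members were called, with unadjusted p-values under 0.05 in 1 to 6. Of all genes, between 37 (pseudocount 0.1) and 237 (sample quality weights) were called in these fits, so few calls were possible among the members. Whether replicates of the same number share a culture or day is not stated. The correlation of their deviations was 0.17, -0.06 and 0.08 over all genes for replicates 1, 2 and 3. Over the members alone it was 0.17, -0.47 and -0.32. With 3 libraries per group these values cannot decide it. With the replicate block as a term, 0 members were called, the median log2 fold change was -0.15 and 55 of all genes were called, against 66. Depth limits IFI27, RSAD2, IFIT2, HERC5 and IFITM1, which had 10 or fewer reads in control replicates 1 and 3 together, and SDs rest on 3 libraries per group.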
